A study of Mus musculus with 15 samples.

Results

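RevErbalpha (gene Nr1d1) and RevErbbeta (gene Nr1d2) binding was compared, site by site, at the sites the study's authors listed as common to both proteins in RAW macrophages, a mouse macrophage line. Every site of that list was used, 1544 of 1544, and binding is compared in 3 of the 15 labelled samples. In each, sonicated chromatin was captured on streptavidin beads and sequenced. The first came from cells expressing biotinylated RevErbalpha, the second from cells expressing biotinylated RevErbbeta, and the third, the background, was labelled BirA (the biotin ligase) and came from control RAW cells. All 3 carry the same C57Bl6 background label, and the labels name no deletion of the cells' own Nr1d1 and Nr1d2 genes. Binding is therefore that of an added, tagged protein, and the promoter that drives it is not given in the sources used here. The deposited table gives 3 ChIP-seq runs for each protein and 1 BirA column. That column is named BirA-input, so it may hold unprecipitated chromatin. The runs were treated as repeat runs of 1 sample, so nothing below is a test over biological replicates and no p-value is given. The header names 5 RevErbalpha libraries (1 treated with KLA for 1 h and 1 after serum shock) and 3 RevErbbeta libraries (1 treated with KLA for 1 h), and it does not link them to the run columns. A difference between the proteins and a difference in treatment therefore cannot be told apart. The tables hold no expression values for RAW cells, so macrophage markers could not be checked in them. Nascent transcripts of other samples are set beside binding near the end. These are 5'GRO-seq of control RAW cells and of cells expressing biotinylated RevErbalpha, and GRO-seq of bone marrow derived macrophages. The latter carry floxed alleles of both RevErb genes, with Tie2-Cre (DKO) or without Cre (WT).

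The RevErbs are nuclear receptors that lack the activation helix of other receptors and repress transcription when bound, with heme as their ligand and the corepressor NCoR and histone deacetylases as partners. They bind as monomers to the RevErb response element, an A/T-rich stretch followed by the receptor motif AGGTCA, or as pairs to a repeat of it. In the clock they repress Arntl (Bmal1) and their own genes, and in macrophages they are known for repression at distal enhancers. The DNA-binding domains of the paralogs are closely alike, and sites at which their binding differs are less well described.

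The full response element was found at 4 gene-start sites shared by both proteins. The windows searched run from 250 bases before to 50 bases after a RefSeq gene start (GRCm38.p6, used for sequence only). They show what both proteins share and were searched on both strands for AGGTCA, for the full element, in which AANT stands directly before AGGTCA, and for a direct repeat of AGGTCA with 2 bases between the copies. Every full element and every repeat also counts as AGGTCA. Of 97 genes with a common site within 250 bp of a start, 76 had a window. The full element was in 4 of these 76 (5.26%), against 70 of 27025 genes overall (0.259%). AGGTCA alone was in 20 of 76 (26.3%), against 18.1% of all genes, and the repeat was in 0 of 76, against 2 of 27025. These are counts of letters in promoter windows, not in the sites themselves. The 4 matches are printed on the plus strand with the full element in capitals:

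S100a4, chr3:90603712-90603769: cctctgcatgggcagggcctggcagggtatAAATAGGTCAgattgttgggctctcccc
1700096K18Rik, chr5:25529832-25529901: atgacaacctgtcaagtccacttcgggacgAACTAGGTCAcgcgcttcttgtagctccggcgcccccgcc
Arntl, chr7:113207528-113207557: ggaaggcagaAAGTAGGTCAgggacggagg
Leo1, chr9:75441428-75441497: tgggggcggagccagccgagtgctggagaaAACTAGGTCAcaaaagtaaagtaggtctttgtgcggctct

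None of the 4 leaned to one protein by the rule given below. Arntl, the clock activator, and Leo1, a subunit of the Paf complex of RNA polymerase, had the strongest binding of the 4, with a mean over the 6 runs of 8.57 and 8.26. S100a4 and 1700096K18Rik had 5.34 and 5.30, below the median of 5.54 over all sites. At the Arntl start site (mm9 chromosome 7, 120350968 to 120351124, 67 bp from the start) the RevErbalpha runs read 6.86, 8.70 and 8.12 and the RevErbbeta runs 9.64, 8.28 and 9.82, against 0.79 for BirA. These are log2 tags per 10000000 in 157 bp, the unit of every binding value here. At the Leo1 site the runs read 6.68, 8.55 and 8.49 for RevErbalpha and 8.90, 8.25 and 8.66 for RevErbbeta. The 2 sets of runs overlapped at both sites, and RevErbalpha run 1 was the lowest of all 6 at each.

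The runs differ in depth. RevErbalpha run 1 holds 5276592 tags and RevErbbeta runs 1 and 2 hold 3751878 and 4888686, and these 3 are called deep. RevErbalpha runs 2 and 3 hold 682651 and 598490 tags and RevErbbeta run 3 holds 780281, and these are called shallow. The median site had about 17, 17 and 41.7 tags in the deep runs and about 4.07, 3.32 and 3.26 in the shallow ones. Under 1 tag was found at 1 site in RevErbalpha run 1 and at 0 sites in RevErbbeta runs 1 and 2, but at 108, 181 and 194 sites in the shallow runs. Single tags thus weigh heavily in the shallow values.

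The mean of each protein lay above background at every site. The BirA column, with 10548880 tags, lay at least 1 log2 unit below both protein means at 1544 of 1544 sites. The smallest margin was 1.14, at a site of Nod2 where RevErbalpha runs 2 and 3 were near the BirA value, and the median margins were 4.37 for RevErbalpha and 4.61 for RevErbbeta. The sites were called for enrichment in both proteins, so this margin was in part built in, and sites bound by a single protein are not in the list.

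On the deposited scale RevErbbeta read higher at 1021 of 1544 sites (66.1%), with a median difference of 0.285 and quartiles of -0.17 and 0.78. That shift did not hold across runs. It was 0.89 in the deep runs alone and -0.295 in the shallow runs alone. The run medians were 5.06, 5.92 and 5.82 for RevErbalpha and 5.53, 6.43 and 5.42 for RevErbbeta, so runs of 1 protein lay farther apart than the proteins did. A level shared by all sites of a run is set by pull-down and depth as well as by binding. Each run was therefore centred on its own median, and only the rank and relative height of a site are compared from here on. The difference is always RevErbbeta minus RevErbalpha.

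After centring, runs of the same protein were about as far apart as runs of different proteins. The deep RevErbbeta runs differed from each other with an SD of 0.90 over sites, and 446 sites (28.9%) were 1 log2 unit or more apart. The deep RevErbalpha run differed from these runs with SDs of 1.03 and 0.95, and 490 (31.7%) and 462 (29.9%) sites were that far apart. Tag counts alone give an SD of 0.43 to 0.51 at the median site for these 3 pairs. That value is for the median site, and the SDs above are taken over all sites, those with few tags included. They are not like measures, and the part of counting error in the spread was not tested.

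With a shallow run in the pair, the SD was 1.25 to 1.56 for 5 pairs of 1 protein and 1.13 to 1.63 for 7 pairs of different proteins. Each RevErbalpha run ranked the sites more like a RevErbbeta run than like another RevErbalpha run. The closest partner was RevErbbeta run 2 for RevErbalpha run 1 (Spearman 0.52), and RevErbbeta run 1 for RevErbalpha runs 2 and 3 (0.54 and 0.48). The RevErbalpha runs had 0.28, 0.25 and 0.39 among themselves. These correlations are across sites, which are not replicates, and shallow runs lower them.

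**Figure D1:**
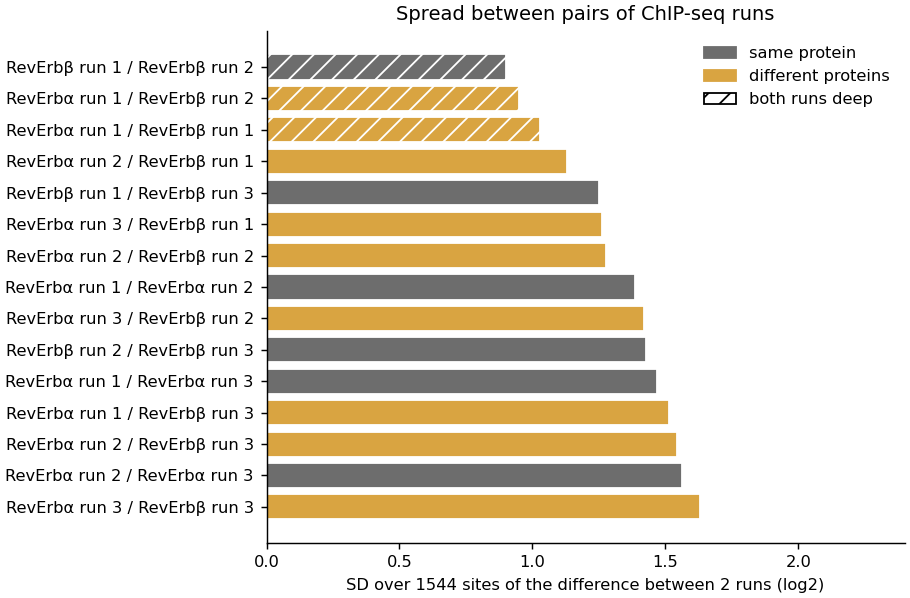
SD over 1544 sites of the centred log2 difference between 2 runs, for all 15 pairs of the 6 runs. Grey bars are pairs of 1 protein, ochre bars are pairs of different proteins and hatching marks pairs of deep runs. The deep RevErbbeta pair is the closest at 0.90, followed by the deep pairs across proteins at 0.95 and 1.03, and the bars of both colours intermix below.

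The deep and shallow runs give separate measurements, since they share no run. Whether they measure the same difference is not known, because treatments are not linked to the run columns. Across all 1544 sites the difference in the deep runs had almost no relation to that in the shallow runs, with Pearson's r at 0.035 and Spearman's rho at 0.044. At the 1131 sites with 1 tag or more in each shallow run these were 0.085 and 0.095. In the quintile of sites with the strongest binding, 309 sites, they were 0.25 and 0.30. With runs given a common distribution of values (quantile normalisation, an added setting) the Pearson correlation over all sites was -0.01. Tag counts alone give an SD of 1.17 and 1.21 at the median site for RevErbbeta run 3 against RevErbalpha runs 2 and 3. With that much counting error in the shallow difference, a weak relation cannot show whether the deep-run differences would recur.

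The sites called in the deep runs alone behaved in the same way. Both deep RevErbbeta runs were 1 or more above RevErbalpha run 1 at 124 sites (8.03%), and both were 1 or more below it at 78 (5.05%). Of the 124, the shallow runs put RevErbbeta higher by 1 or more at 29 (23.4%), against 22.4% of all sites. Of the 78, the shallow runs put RevErbalpha higher by 1 or more at 15 (19.2%), against 18.8% of all sites. Both shares were near those of all sites. Given the counting error of the shallow runs, they cannot show whether the deep-run differences would recur.

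**Figure D2:**
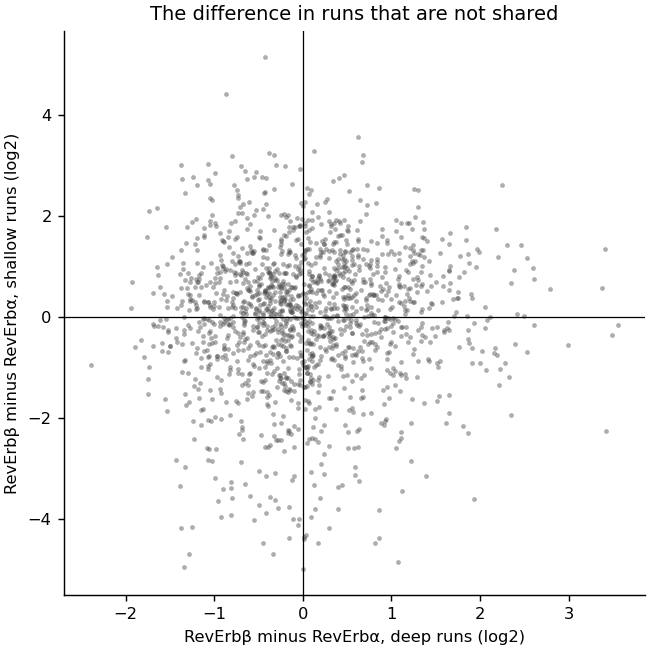
Difference between RevErbbeta and RevErbalpha (centred log2) at each of 1544 sites, in the deep runs on the x axis and in the shallow runs on the y axis. The points form a cloud without a slope (Pearson 0.035), and the range is wider on the shallow axis.

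A site was called leaning when all 3 runs of one protein lay above all 3 runs of the other and the means differed by 1 or more. The runs were apart at 81 sites in favour of RevErbbeta (5.25%) and at 77 in favour of RevErbalpha (4.99%), and they overlapped at 1386 sites (89.8%). With the size limit, 53 sites leaned to RevErbbeta (3.43%) and 49 to RevErbalpha (3.17%), or 6.61% in either direction. Without centring the split was 78 to RevErbbeta and 15 to RevErbalpha, and with quantile-normalised runs 42 and 62, so which protein had more leaning sites depended on the scaling. The median difference over all sites was 0.09, with quartiles of -0.37 and 0.59. Differences ran from 1.01 to 2.32 among the RevErbbeta-leaning sites (median 1.40) and from -2.50 to -1.02 among the RevErbalpha-leaning ones (median -1.32). Since a site leans through these same runs, its difference is a description and supports nothing further. The counts in the 2 directions were close, and a lean describes these runs and was not shown to be a property of the site. At the limit, sites of Specc1 and Eea1 were just inside at 1.01 and sites of Eea1 and Hmga2 just outside at 0.99. On the other side, sites of Bcl3 (-1.02) and Vapb (-1.05) were inside and those of Zeb2 and Sod1 (both -0.997) outside.

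The call rests in part on shallow runs. RevErbbeta run 3 held under 1 tag at 25 of the 49 RevErbalpha-leaning sites, and a shallow RevErbalpha run did at 13 of the 53 RevErbbeta-leaning ones. Without RevErbbeta run 3, 27 of the 49 and 41 of the 53 sites remained called. The deep runs alone, with both differences at 1 or more, retained 25 of the 53 and 13 of the 49. With tags summed over runs, which weighs runs by depth, 37 and 28 were retained.

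**Figure D3:**
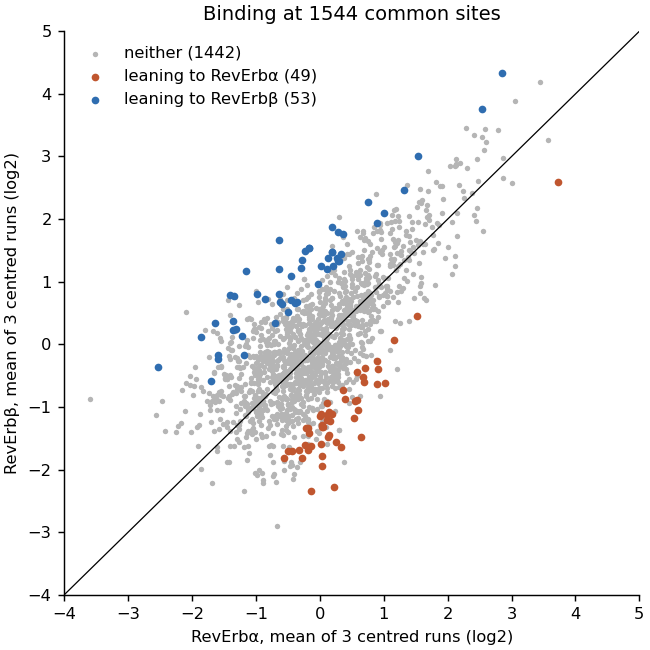
Mean of the 3 centred RevErbalpha runs (x axis, log2) against the mean of the 3 centred RevErbbeta runs (y axis, log2) at 1544 sites. Blue points lean to RevErbbeta (53), orange points to RevErbalpha (49) and grey points to neither (1442), and the line marks equal values. Coloured points lie 1 or more off the line by construction, among grey points that are as far off it but have overlapping runs.

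The RevErbbeta-leaning sites named here are those with the largest differences in the deep runs. The largest were near Plekho2, a pleckstrin homology domain protein, and within reach of Shisa9, an auxiliary subunit of AMPA receptors. At the Plekho2 site (mm9 chromosome 9, 65383115 to 65383271, intergenic enhancer-like, 44648 bp from the start) the RevErbalpha runs read 2.79, 6.06 and 6.61, the RevErbbeta runs 6.68, 7.49 and 6.47 and BirA 1.59. At the Shisa9 site (chromosome 16, 12032604 to 12032760, genic enhancer-like) they read 2.22, 5.41 and 6.20 against 6.19, 6.91 and 6.70. At both, RevErbalpha run 1 sat more than 3 log2 units below the other RevErbalpha runs, which came close to the RevErbbeta runs. On the deposited scale RevErbalpha run 3 even passed RevErbbeta run 3 at the Plekho2 site (6.61 against 6.47), and they are apart there only after centring. Srgap2, a Rac GTPase-activating protein, had the same shape, with 4.03, 6.99 and 6.78 against 6.95, 7.65 and 7.11 at a site in chromosome 1 (133359265 to 133359421).

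At other sites all RevErbalpha runs lay below all RevErbbeta runs as deposited too. The site assigned to 2810002N01Rik (chromosome 12, 112970797 to 112970953, genic enhancer-like) read 4.29, 4.45 and 6.14 for RevErbalpha and 7.43, 7.48 and 7.46 for RevErbbeta, a centred difference of 2.30. The BirA value there, 2.25, was among the higher ones. The Smox site (chromosome 2, 131249380 to 131249536), assigned to spermine oxidase, read 5.11, 6.05 and 6.19 against 7.73, 8.27 and 7.02, a difference of 1.70.

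Zmiz1 encodes a transcription coactivator related to the PIAS proteins. Here and below a negative distance is upstream of the start. Its site (chromosome 14, 26265921 to 26266077, promoter-like, at -12779 bp from the start) read 4.23, 5.74 and 6.33 against 7.15, 7.50 and 7.34. The site of Cadm1, a cell adhesion molecule, lay 215522 bp from the start (chromosome 9, 47553879 to 47554035) and read 4.55, 6.43 and 5.11 against 7.49, 7.86 and 6.52. Fcrla, an Fc receptor-like protein of B cells, had 3.73, 5.54 and 5.64 against 5.84, 7.20 and 6.39 at a promoter-like site 15081 bp from its start. The centred differences were 1.70, 1.73 and 1.31. Triobp, Fam78b, A4galt and Lrig2 complete the 12, with differences of 1.63, 1.25, 1.35 and 1.29. None of the 12 lay within 1 kb of a gene start.

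Some RevErbbeta-leaning sites were less marked in the deep runs. Cdkn1a, the gene of a cyclin-dependent kinase inhibitor, had the largest centred difference of all 53, 2.32, at a promoter-like site 896 bp from its start (chromosome 17, 29231535 to 29231691). There the RevErbalpha runs read 5.33, 4.61 and 3.40 and the RevErbbeta runs 6.26, 7.49 and 7.13. RevErbalpha run 3 held under 1 tag at this site, and the deep differences were 0.46 and 0.79, so the size came from the shallow runs. This site was chosen after its values were seen.

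The RevErbalpha-leaning sites are named by the same rule. The site within 9830001H06Rik (chromosome 2, 156895217 to 156895373) read 4.91, 4.94 and 5.27 for RevErbalpha and 3.65, 4.42 and 3.86 for RevErbbeta, with BirA at 0.04. The Sgms1 site (chromosome 19, 32378622 to 32378778, genic enhancer-like), in the gene of sphingomyelin synthase, read 5.31, 5.56 and 6.31 against 4.50, 4.47 and 3.97. The AU019990 site (chromosome 2, 132425009 to 132425165) read 5.41, 6.04 and 5.84 against 4.41, 4.77 and 4.51. Every run of RevErbalpha was above every run of RevErbbeta as deposited at these 3 sites, and the centred differences were -1.26, -1.61 and -1.39. RevErbalpha run 1 did not stand apart from runs 2 and 3 here, unlike at Plekho2 and Shisa9.

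Oasl2 is an interferon-induced gene of the oligoadenylate synthetase family. Its promoter-like site (chromosome 5, 115327541 to 115327697, at -19324 bp) read 6.43, 7.06 and 6.77 against 5.17, 6.54 and 5.89, a difference of -1.08. RevErbbeta run 2 passed RevErbalpha run 1 there as deposited and fell below it only after centring. Ptma, the gene of prothymosin alpha, had 5.64, 6.62 and 6.27 against 4.87, 4.46 and 5.40 at a promoter-like site at -39204 bp (chromosome 1, 88384029 to 88384185), a difference of -1.46.

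At several of these sites the size of the difference came from RevErbbeta run 3. At the site of Gadd45a, a growth arrest and DNA damage gene, the RevErbalpha runs read 5.15, 5.74 and 5.50 and the RevErbbeta runs 4.05, 5.33 and 0.99. At the start of Mtg1, a GTPase of the mitochondrial ribosome, they read 5.90, 6.03 and 6.78 against 5.33, 5.80 and 1.80. RevErbbeta run 3 held under 1 tag at each of these sites, and the centred differences were -2.20 and -2.12. With tags summed over runs they were -1.26 and -1.31.

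The remaining RevErbalpha-leaning sites among the 12 belong to genes of varied function. Vta1, a protein of multivesicular body sorting, leaned at its start, at -83 bp (chromosome 10, 14425300 to 14425456), with 5.02, 5.28 and 5.20 against 4.46, 4.78 and 3.05. Tns1, a focal adhesion protein, had 5.07, 6.72 and 6.82 against 4.30, 5.42 and 4.50 at a site 173055 bp from its start. Elmo1, which acts in engulfment of apoptotic cells, had 5.29, 6.39 and 5.56 against 4.56, 5.40 and 4.17. Their differences were -1.26, -1.66 and -1.23. Chmp6, a subunit of the membrane-cutting ESCRT machinery, and Tubb6, a beta-tubulin, complete the 12 with -1.14 and -1.16.

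**Figure D4:**
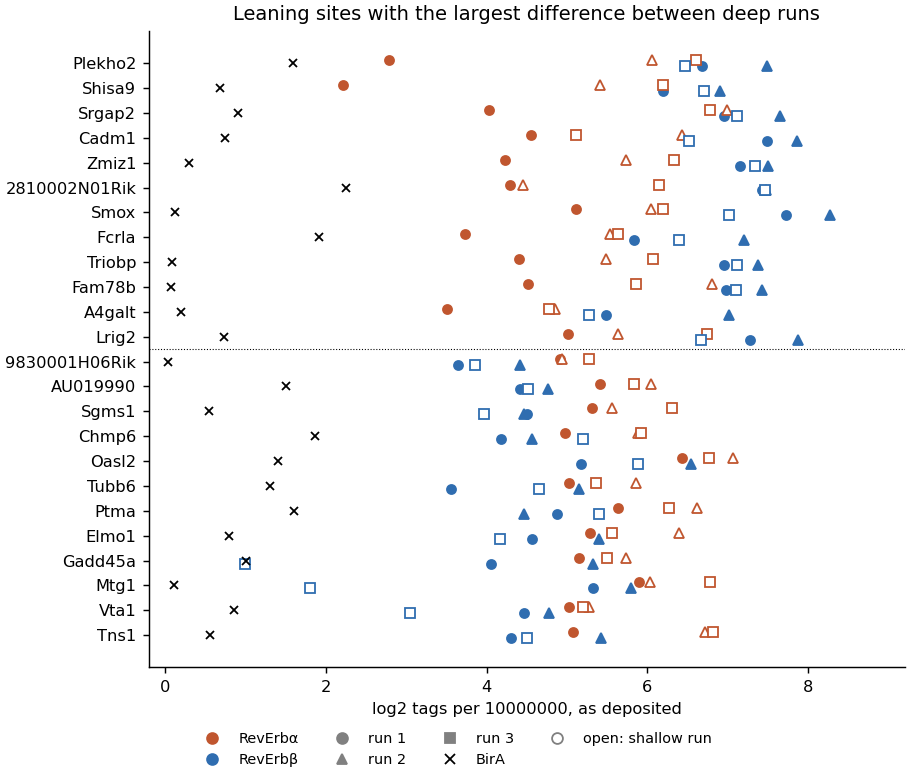
Deposited log2 tags per 10000000 in each run at the 12 leaning sites per direction with the largest deep-run differences, RevErbbeta-leaning above the dotted line and RevErbalpha-leaning below. Colour gives the protein, shape the run number, open symbols the shallow runs and crosses BirA. RevErbalpha run 1 lies far to the left at Plekho2 and Shisa9, and RevErbbeta run 3 does so at Gadd45a and Mtg1.

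Of the 9 strongest sites (3 per class), 7 read relatively higher for RevErbbeta after centring and 5 after quantile normalisation. Sap25, a component of the Sin3 corepressor complex, had 7.54, 9.13 and 8.70 for RevErbalpha and 10.42, 9.83 and 10.14 for RevErbbeta at a promoter-like site (chromosome 5, 138093847 to 138094003), and it leaned to RevErbbeta with 1.48. The intergenic site assigned to Dnttip2 (chromosome 3, 122046632 to 122046788) leaned the same way, with 7.36, 8.67 and 8.37 against 9.94, 9.29 and 9.41. Neither leaned after quantile normalisation, where the differences were 0.90 and 0.68.

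At the strongest site of all, of the sugar-phosphate transporter gene Slc37a2, the runs overlapped: 7.65, 9.69 and 9.78 for RevErbalpha and 10.53, 9.51 and 9.91 for RevErbbeta. The Arhgap25 and Hmga1 sites also overlapped, with differences of 0.82 and 0.11. The site upstream of Mmp9, a gelatinase gene, read 8.30, 9.51 and 9.71 against 9.41, 8.92 and 8.82, a difference of -0.32. Pqlc1 was the 1 site of the 9 that leaned to RevErbalpha, with 9.04, 9.65 and 9.31 against 8.11, 9.45 and 7.61 (chromosome 18, 80509911 to 80510067), a difference of -1.14. It leaned after quantile normalisation too.

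RevErbalpha run 1, which has the lowest median of the 6 as deposited, was below runs 2 and 3 at 7 of these 9 sites after centring and the lowest of all 6 at 5 of 9. In the strongest quintile of sites it was the lowest of 6 after centring at 100 of 309 (32.4%), against 253 of all 1544 (16.4%).

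The difference was also set beside the strength of binding. Strength is the mean of the same 6 runs that give the difference, so a trend between them is a description and in part built in. The RevErbbeta means spread more over sites (SD 1.01) than the RevErbalpha means (0.90). From the weakest to the strongest quintile of sites by mean binding, the median difference was -0.04, 0.00, 0.04, 0.12 and 0.33. The number of RevErbalpha-leaning sites was 16, 16, 6, 9 and 2 in that order, and that of RevErbbeta-leaning sites 5, 6, 9, 12 and 21. The RevErbalpha-leaning sites had a median level of 5.14 and the RevErbbeta-leaning ones 6.16, against 5.54 for sites that leaned to neither. These levels include the runs that must be low for a site to lean. In the RevErbalpha runs alone, the RevErbalpha-leaning sites had a median of 5.74, against 5.45 for all sites. These runs must be high for such a site to lean, so that value is in part built in as well. The interquartile ranges were 1.06, 1.61 and 1.56 in the RevErbalpha runs and 1.22 to 1.78 in the RevErbbeta runs. Quantile normalisation makes the spread of single runs equal, but not that of the protein means. It therefore cannot separate the built-in part of the trend from the rest. With quantile-normalised runs the medians ran from -0.18 to 0.15. The counts were then 23, 16, 8, 10 and 5 for RevErbalpha and 5, 6, 7, 11 and 13 for RevErbbeta. Depth per site moves with these groups as well, and its part in the trend was not tested.

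**Figure D5:**
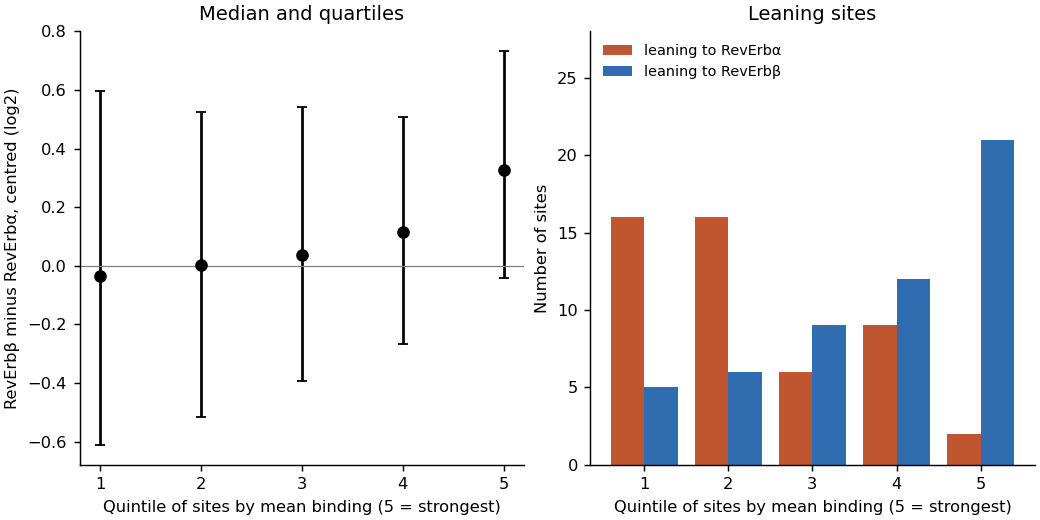
Left, median (points) and quartiles (bars) of the RevErbbeta minus RevErbalpha difference (centred log2) in quintiles of sites by mean binding, from weakest (1) to strongest (5). Right, number of leaning sites per quintile, in orange for RevErbalpha and in blue for RevErbbeta. The median rises from -0.04 to 0.33, and the leaning sites pass from mostly RevErbalpha (16 against 5) to mostly RevErbbeta (2 against 21).

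By class, the counts were small, and which protein had more leaning sites depended on the processing at intergenic sites. Of 687 genic enhancer-like sites, 21 leaned to RevErbalpha (3.06%) and 17 to RevErbbeta (2.47%). Of 556 intergenic enhancer-like sites, 15 (2.70%) and 26 (4.68%) did. Of 301 promoter-like sites, which carry more H3K4me3 than H3K4me1 in the authors' class, 13 (4.32%) and 10 (3.32%) did. The median differences were 0.10, 0.10 and 0.02. After quantile normalisation the counts were 26 and 16, 22 and 19, and 14 and 7, so the excess of RevErbbeta at intergenic sites turned into a small excess of RevErbalpha.

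Sites at gene starts read relatively higher for RevErbalpha, mainly through the deep runs. Within 1 kb of a start, 9 of 152 sites leaned to RevErbalpha (5.92%) and 3 to RevErbbeta (1.97%), with a median difference of -0.12. Farther away, 40 of 1392 (2.87%) and 50 (3.59%) leaned, with a median of 0.11. Within 1 kb the centred run medians were -0.035, -0.26 and -0.145 for RevErbalpha and -0.46, -0.645 and -0.195 for RevErbbeta. The shallow RevErbbeta run thus lay between the shallow RevErbalpha runs. Besides Mtg1 and Vta1, the RevErbalpha-leaning start sites include those of Twistnb (-1.21), a subunit of RNA polymerase I, Pdss1 (-1.29), which makes the side chain of coenzyme Q, and Lmna (-1.15), the lamin A gene. The RevErbbeta-leaning ones are Cdkn1a, Ptpn22 (1.06), a phosphatase that restrains immune receptor signalling, and Cars2 (1.13), a mitochondrial tRNA synthetase. Start sites were also weaker, with a median level of 5.28 against 5.57 farther away, so closeness to a start and weak binding cannot be told apart with these counts.

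No gene had more than 1 leaning site. When the sites of a gene ID were averaged, 42 of 1220 IDs leaned to RevErbbeta (3.44%) and 36 to RevErbalpha (2.95%). Of these, all but 2 rested on 1 site. Both exceptions had 2 sites and leaned to RevErbbeta: Ptpn1 (1.29), an insulin receptor phosphatase, and Crtam (1.04), an adhesion receptor of T and NK cells. Of the 238 IDs with 2 or more sites, 73 had every site on the RevErbbeta side of 0, 34 had every site on the RevErbalpha side and 131 were mixed. The median over all sites was 0.09, so more single sites lay on the RevErbbeta side as well.

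Neighbouring sites of 1 gene showed no shared direction. Over 339 pairs of neighbouring sites of the same gene, the Pearson correlation of their differences was -0.07, and 170 pairs (50.1%) had the same sign. In the 126 pairs less than 10 kb apart it was -0.14. Spred1, an inhibitor of Ras signalling with 9 sites, ran from -1.05 to 1.19, with 4 sites above 0. Reep3, an endoplasmic reticulum protein with 6 sites, ran from -0.37 to 0.44, with 5 above 0. Cyth4, an exchange factor for Arf GTPases, had differences of 0.68 to 0.91 at 4 of 4 sites, and none of them leaned. In the deep runs alone 2 of the 4 were below 0 (-0.975 and -0.685), against 1.65 and 0.355 at the others, so its shared sign rested on the shallow runs.

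No site of the listed clock and macrophage genes leaned. Of 108 sites of 69 listed genes in 8 lists, 0 leaned, against 6.61% of all sites, and 14 (13%) had a difference of 1 or more in either direction, against 17.6%. The runs were apart at 4 of the 108, all toward RevErbbeta, against 10.2% of all sites in either direction. These were a site of Ifngr2 (0.55), an interferon gamma receptor chain, 2 sites of Tgfbr1 (0.69 and 0.51), a TGF-beta receptor, and the site of Nlrp3 (0.76), the inflammasome sensor.

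The clock list covered 13 sites of 8 genes with a median difference of 0.06, and 9 were above 0. Over all sites the median was 0.09, so more of them lay above 0 than below it. The counts above 0 in this and the following lists are to be read against that, and the lists are small. Nr1d1 itself had 3 sites. The site at its start (chromosome 11, 98636608 to 98636764, at -130 bp) read 6.43, 8.19 and 8.50 for RevErbalpha and 8.74, 8.55 and 8.63 for RevErbbeta, a difference of 0.74. The site at 1423 bp read 5.06, 7.06 and 6.76 against 6.19, 7.32 and 6.12 (0.06). The site at -8318 bp read 5.72, 4.85 and 5.45 against 5.65, 6.26 and 4.70 (0.00). All 3 pairs of run sets overlapped after centring. Cry1, a clock repressor, had 5.45, 8.39 and 7.50 against 8.18, 7.25 and 8.52 at a site 23132 bp from its start (0.68). The sites of Per1 (0.02), Clock (0.33), Bhlhe40 (-0.56) and Arntl2 (-0.53) overlapped as well.

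Among surface receptors, the chemokine receptor gene Cx3cr1 showed how far sites of 1 gene could differ. Its sites 30691 and 9374 bp from the start had differences of 1.19 and 0.75, and the one at 24894 bp had -1.48. The first read 5.29, 7.58 and 8.01 for RevErbalpha and 9.08, 7.31 and 8.63 for RevErbbeta. The third read 4.41, 6.56 and 4.50 against 5.72, 5.28 and 0.61, so that its size rested on RevErbbeta run 3, and with tags summed over runs it was -0.28. The list of chemokines, cytokines and receptors had a median of 0.22 over 18 sites, 9 of them above 0.

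The largest difference of any listed site was at Nod2, a bacterial sensor, with 4.05, 0.90 and 1.08 for RevErbalpha and 4.82, 4.26 and 5.70 for RevErbbeta (2.72). The shallow RevErbalpha runs held almost no tags there, and the runs still overlapped. With this site included, 4 of 13 pattern recognition sites were above 0, with a median of -0.23. The Tlr4 site 29395 bp from its start, in the gene of the endotoxin receptor, had -1.13. Its runs overlapped, and with tags summed over runs it was -0.33.

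Lipid-handling genes had the highest list median, 0.53 over 12 sites with 9 above 0, and include Plin2 (1.13), a lipid droplet coat protein, and the 3 sites of the cholesterol exporter Abca1 (0.34, 0.80 and 0.67). The runs overlapped at each of these sites. With tags summed over runs the Abca1 differences were 0.27, 0.56 and 0.23. At Plin2 RevErbalpha run 1 read 3.87, far below runs 2 and 3 (7.31 and 7.65). Proteases and inhibitors had the lowest, -0.45 over 13 sites with 4 above 0. Within that list Adam17, the TNF-releasing protease, had 1.53, from 4.98, 6.70 and 7.74 against 8.79, 7.61 and 8.20. The macrophage transcription factors (0.18, 24 sites), surface and phagocytosis genes (0.35, 11 sites) and nuclear receptor cofactors (-0.16, 5 sites) are to be read against the 0.09 of all sites.

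Readouts that played no part in the choice were also compared at the leaning sites. BirA was 0.86 at RevErbalpha-leaning, 0.95 at RevErbbeta-leaning and 1.10 at all sites (medians), so neither set had a higher background. The median distance to a gene start was 16417, 40771 and 22430.5 bp in that order. Within 1 kb lay 9 of 49 (18.4%), 3 of 53 (5.66%) and 9.84% of all sites.

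5'GRO-seq captures capped ends of nascent transcripts. Control RAW cells and cells expressing biotinylated RevErbalpha gave 1 library each. The signal in 500 bp was lower by 1 or more with tagged RevErbalpha at 309 of all 1544 sites (20.0%) and higher at 76 (4.92%). It was lower at 18 of the 53 RevErbbeta-leaning sites (34.0%) and at 2 of the 49 RevErbalpha-leaning sites (4.08%). The median differences were -0.54 and -0.04, against -0.23 for all sites. The tagged protein of that experiment was RevErbalpha, and the larger share was at sites leaning to the other paralog.

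Binding strength moved with this count. In the strongest quintile, 7 of 21 RevErbbeta-leaning sites were lower (33.3%), against 116 of 309 sites (37.5%). In the 2 weakest quintiles, 4 of 11 RevErbbeta-leaning (36.4%) and 1 of 32 RevErbalpha-leaning sites (3.1%) were lower, against 77 of 618 (12.5%). In quintiles 3 and 4, 3 of 9 and 4 of 12 RevErbbeta-leaning sites were lower (33.3% in each), against 17.2% and 20.4% of all sites there. Of the RevErbalpha-leaning sites, 0 of 6 and 0 of 9 were. In the strongest quintile the share of RevErbbeta-leaning sites was thus near that of all sites, and in the other groups it was higher. Those groups rest on 3 or 4 lower sites each, too few to set any of them apart. Whether binding strength accounts for the contrast was not tested.

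GRO-seq in bone marrow derived macrophages compared Tie2-Cre with floxed alleles of both genes (DKO) and the same floxed alleles without Cre (WT). Tie2-Cre acts in endothelial and blood cells. The median DKO minus WT difference at sites was 0.00 at RevErbalpha-leaning sites, -0.005 at RevErbbeta-leaning sites and 0.03 at all sites. Both proteins were deleted together there, so the comparison cannot separate them.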

How the data were processed

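Binding values are the deposited log2 values: log2 tags per 10000000 in 157 bp, counted by the authors at their 1544 common sites and scaled to library size, per the file headers. The submitters' processing notes name the build mm9 and the tools HOMER and Bowtie (0.12.7). How peaks were called and whether replicates were pooled is not given in the sources used here. Low values do not fall on steps of whole tags, so no count model was used, and tag numbers are approximate. Every column of per-sample values in the table was assigned.

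Protein means were recomputed from the runs and lay within 0.0033 of the authors' means. Each run was centred on its median over sites. Named sites are the 12 leaning sites per direction with the largest smaller difference of the 2 deep comparisons, 3 sites at each side of the size limit, leaning sites of listed genes, genes with 2 or more leaning sites, the 3 strongest sites per class and the Nr1d1 sites. Other sites named were chosen after their values were seen. Members and lists were chosen with earlier results of these data known. Gene names that had become dates (3) were restored from RefSeq. The rule was tested on simulated data with counting error only. Any further spread between runs was not simulated, so that test cannot show how often the rule calls a lean without a difference in binding. A motif search at the sites was planned but not run, because no genome of the files' build was used. Python 3.11.15, pandas 2.3.3 and numpy 2.4.6 were used. Depth ranged from 598490 to 5276592 tags per RevErb run. Alternatives were other scalings, size limits, offsets, run subsets and a low-binding filter.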

Additional observations from a re-analysis of the deposited data

How the results depend on the processing

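Counts below are given in the order sites to RevErbalpha, sites to RevErbbeta, gene IDs to RevErbalpha and gene IDs to RevErbbeta, and were 49, 53, 36 and 42 as reported. They were 15, 78, 11 and 64 without centring, 78, 124, 59 and 95 in the deep runs only, and 111, 113, 82 and 76 with tags summed by depth. A size limit of 0.5 gave 75, 80, 59 and 68, one of 1.5 gave 15, 22, 11 and 18, and no size limit gave 77, 81, 61 and 70. An offset of 10 gave 27, 37, 22 and 27, and sites above the lower quartile of binding gave 34, 35, 28 and 28. BirA was 1 or more below both means at every site, so requiring this removed no site and could not change these counts. Chosen after seeing the data, quantile normalisation gave 62, 42, 46 and 33, the shallow runs only 199, 152, 146 and 108, and averaging by gene symbol 35 and 41 genes. Leaving out 1 run at a time gave 46 to 98, 66 to 132, 34 to 71 and 45 to 103, as fewer runs then have to be apart. Sites to RevErbalpha were 46 without RevErbbeta run 3 and 75 to 98 without any other run, and sites to RevErbbeta were 66 without RevErbbeta run 3, 76 without RevErbalpha run 3 and 85 to 132 without any other. The excess of RevErbbeta over RevErbalpha sites turned in the quantile-normalised and shallow settings, without RevErbalpha run 3 (90 to RevErbalpha, 76 to RevErbbeta) and without RevErbbeta run 1 (98 and 85). That of gene IDs turned in the same 4 settings (70 and 57, and 65 and 61, in the last 2) and with tags summed by depth, and the cause was not tested. The median difference of 0.285 on the deposited scale was 0.89 in the deep runs and -0.295 in the shallow runs, and 0.017 to 0.544 leaving out 1 run at a time, with the lowest value without RevErbbeta run 2 and 0.037 without RevErbalpha run 1. It was 0.799 with tags summed by depth. No paired analysis was possible because each protein has 1 sample and the run numbers do not pair runs of the proteins. With about 3 to 4 tags at the median site in each shallow run, a difference of 1 log2 unit at a single site was not detectable in them.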
